A study of Mus musculus with 5 samples.

Results

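The regions described here are WT1 sites within an equal number of top peaks in both M15 libraries, which had a peak in both libraries of an edited M15 line but outside that number. WT1 binding had been mapped by CUT&RUN, in which an antibody on chromatin of permeabilised cells directs a nuclease to cut out the DNA beside the bound protein. M15 cells derive from mouse mesonephric epithelium and carry polyoma virus large T, and the edited line is labelled KTS-minus. Both lines were profiled with the same WT1 antibody in 2 libraries each, and an IgG library of M15 was not analysed here. The labels give no age, treatment or clone for either line, and they do not say which isoforms the edited cells still make or whether replicates were separate cultures.

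Members were chosen by rank. Each of the 4 peak lists was ordered by max signal, the highest coverage inside a peak, and cut to as many of its strongest peaks as the shortest list, that of M15 replicate 1, holds. The 4 cuts were merged into 14667 regions wherever peaks shared at least 1 bp. A member was touched by both M15 cuts and by neither KTS-minus cut, and overlapped a peak in both complete KTS-minus lists. Of 4006 regions touched by both M15 cuts, 1404 were members, which is 35.0% (95% Wilson interval 33.6 to 36.5, counting error only). Another 1275 regions (31.8%) were held by all 4 cuts, 1180 (29.5%) by 1 KTS-minus cut, and 147 (3.67%) were in no KTS-minus cut and lacked a peak in 1 or both KTS-minus lists. Leaving out 1 library changes the rule and gave 2212 members without M15 replicate 1, 2551 without M15 replicate 2, 1977 without KTS-minus replicate 1 and 2176 without KTS-minus replicate 2.

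WT1 is a zinc-finger protein of the developing kidney, gonad and mesothelium, where it controls genes of the nephron progenitor, the podocyte and the early gonad. Its transcript is spliced with or without codons for lysine, threonine and serine (KTS) in the linker between the last zinc fingers. The form without KTS is known as the stronger DNA binder, and the form with KTS has been linked to RNA as well as DNA. Mesonephric cells such as M15 make WT1, which is why the line serves to study it.

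The cut means something different in each list, and this sets what a lower rank can show. For M15 replicate 1, the shortest, the cut was the complete list. In M15 replicate 2 the cut kept 10.6% of 60925 peaks and ended at a max signal of 12. In KTS-minus replicate 1 it kept 2.07% of 310999 peaks and ended at a max signal of 25. In KTS-minus replicate 2 it kept 2.63% of 244428 peaks and ended at 40. Whether coverage has a common scale between libraries is not known, so values are compared only inside a list. Where max signals of a region from several lists stand side by side, they do not measure a change between the lines. Genes and sequence at these positions were not used here, because the lists are on build mm9 and the gene table at hand is on another build.

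Members kept a peak in the edited line by the rule, and most of these peaks stood in the upper part of each KTS-minus list. In KTS-minus replicate 1 the best-ranked peak at a member had a median rank of 32826.5, or 10.6% of the list, with quartiles of 4.72% and 26.9%. In KTS-minus replicate 2 the median rank was 38326.5, or 15.7% of the list, with quartiles of 6.37% and 36.2%. Averaged over both libraries, the median percent rank was 13.1% ± 3.62 (SD, n = 2). In the M15 lists the same members had a median at 50.0% of the short list of replicate 1 and at 5.27% of the list of replicate 2. Since the lists differ in length, these shares do not measure a change between the lines. The rule fixed that no member could rank above the KTS-minus cuts, so these values describe how far below them they lay.

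The 10% strongest peaks of KTS-minus replicate 1, a class that holds 10.0% of that list, took in 677 members (48.2%). In KTS-minus replicate 2 the same class, again 10.0% of the list, took in 524 members (37.3%). For 300 members (21.4%) the peak was within the strongest 10% of both lists, for 601 (42.8%) of 1 list, and for 503 (35.8%) of neither. A wider limit, the stronger 50% of peaks, held 1284 members (91.5%) in replicate 1 and 1188 (84.6%) in replicate 2, against 50.0% of all peaks in each. In both lists at once it held 1102 members (78.5%), and 34 members (2.42%) lay in the weaker part of both. A member takes the best of all peaks that overlap it, and wide peaks overlap more readily, so a comparison with all peaks favours the members.

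**Figure D1:**
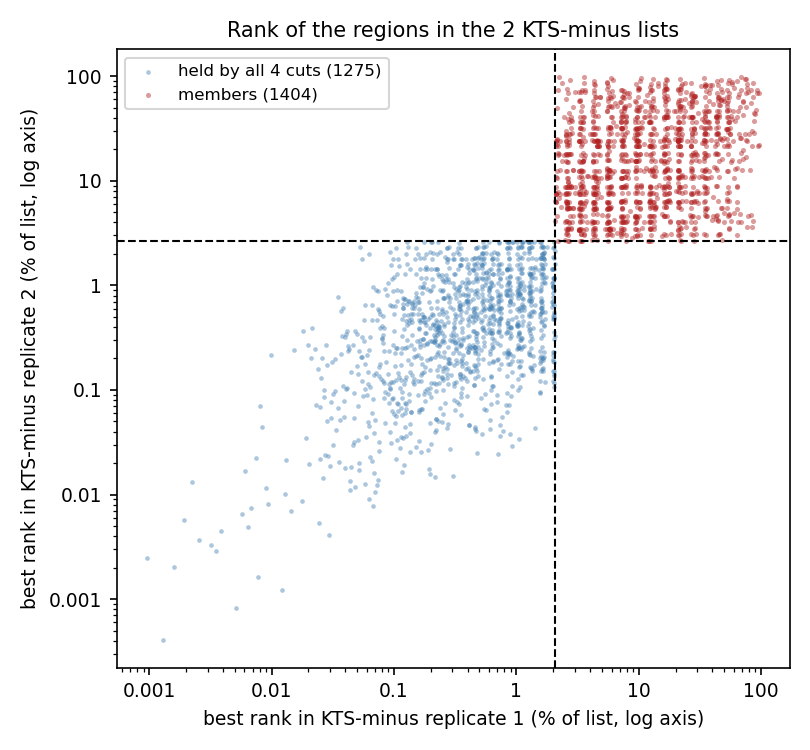
Best rank of each region in KTS-minus replicate 1 (x axis) and replicate 2 (y axis), as a percent of list length on log axes. Red points are the 1404 members, blue points the 1275 regions held by all 4 cuts, and dashed lines mark the cuts at 2.07% and 2.63%. The rule places members in the upper right quadrant, where they fill the range from the cut to near 100% in both lists, and vertical stripes are peaks of equal whole-number max signal.

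Which members lay lowest was only loosely shared between the KTS-minus libraries. Across the 1404 members, ranks in the KTS-minus lists had a Spearman's rho of 0.22, given as a description of regions that share their position and width. Over the same members the M15 pair had a rho of 0.51, and over the 1275 regions held by all 4 cuts the KTS-minus pair had 0.42 and the M15 pair 0.79. Percent ranks in the KTS-minus lists differed at least 2-fold for 832 members (59.3%) and at least 5-fold for 309 (22.0%). The cuts narrow the range of ranks among members, which by itself lowers such values.

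In max signal, the quantity that ranked the peaks, members sat between the typical peak and the cut of each KTS-minus list. Max signal in KTS-minus replicate 1 ran from 8 through a median of 19 to 25, with a list median of 13 and a cut at 25. In KTS-minus replicate 2 it ran from 10 through a median of 29 to 40, with a list median of 21 and a cut at 40. Members above the list median numbered 1219 (86.8%) in replicate 1 and 1152 (82.1%) in replicate 2, where 42.9% and 46.1% of all peaks lie above it. In both lists together 1025 members (73.0%) were above the median, and 58 (4.13%) were at or below it in both. Members reached at least 75% of the max signal of the last peak in the cut in 717 cases (51.1%) in replicate 1 and 663 (47.2%) in replicate 2. The share of all peaks that reach this height is not given here, so these counts do not set members apart from other peaks.

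In M15 replicate 1 the max signal of members ran from 10 through a median of 35 to 159, and the list median was also 35. In M15 replicate 2 it ran from 12 through a median of 16 to 79, above the list median of 7 that its longer list brings. The rule required a place in the cut of replicate 2, which ends at 12, and any place in the list of replicate 1.

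**Figure D2:**
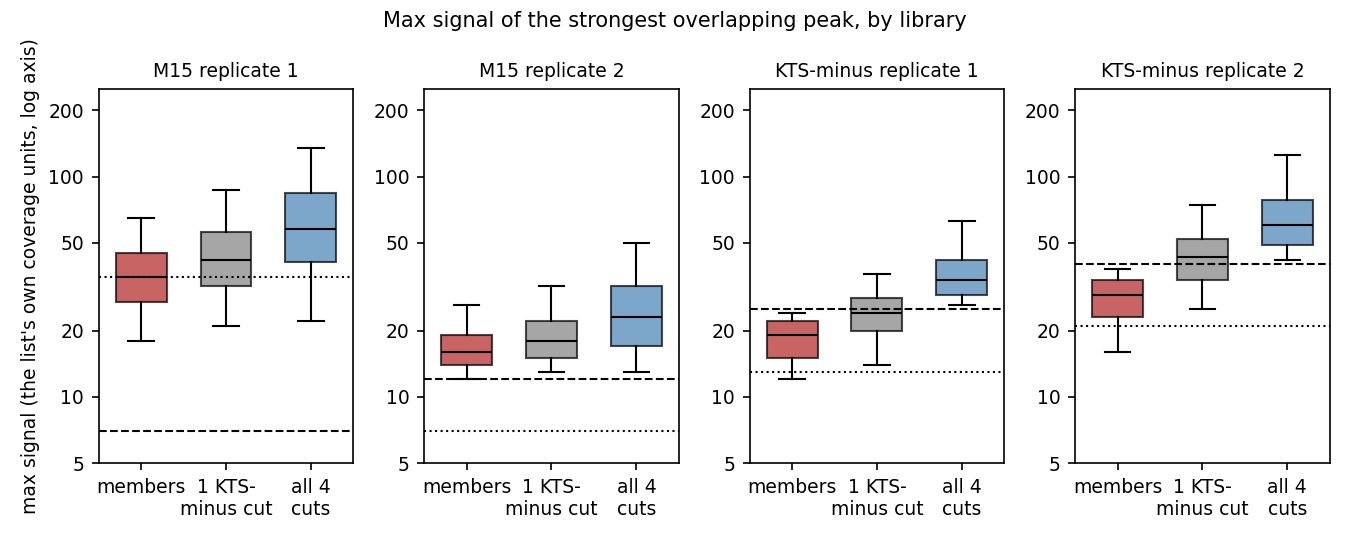
Max signal of the strongest overlapping peak in each library (log axis, each list's own coverage units) for members, regions with 1 KTS-minus cut and regions held by all 4 cuts. Boxes span the quartiles with the median, whiskers the 5th to 95th percentile, the dotted line is the list median and the dashed line the last peak of the cut. In M15, where members and regions held by all 4 cuts passed the same cuts, the members' medians of 35 and 16 lie below the 58 and 23 of the regions held by all 4 cuts.

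Some regions fell on either side of the rule by a narrow margin. In KTS-minus replicate 1, 1709 peaks had the max signal of 25 at which the cut ended, and 361 of them were inside it. In replicate 2, 988 peaks had the value 40, and 165 were inside. Of the members, 37 had a max signal of 25 in replicate 1 and 19 had 40 in replicate 2, so that these members tied with the last peaks of the cut and their total signal placed them outside. The member closest to both cuts was on chromosome 17 from 26273642 to 26275878, where KTS-minus replicates 1 and 2 had peaks of 25 and 40 at ranks 6790 and 6534. The next was on chromosome 11 from 69808766 to 69811066 (24 and 40, ranks 7844 and 6635). Just inside, a region on chromosome 5 from 31494084 to 31497123 took the last place in the cut of KTS-minus replicate 1 with a max signal of 25, but rank 219884 in replicate 2 with 13. Another, on chromosome 9 from 62579336 to 62581321, took the last place in replicate 2 with 40 and rank 89662 in replicate 1 with 15. The last regions kept out of the members by 1 library could thus lie far down the list of the other.

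The members strongest in M15 lay on chromosomes 8, 15, 17 and 11. First was a 1841 bp region on chromosome 8 from 95370203 to 95372043, whose M15 peaks reached 159 in replicate 1 (rank 41) and 79 in replicate 2 (rank 11). Its KTS-minus peaks reached 19 in replicate 1 (rank 30382) and 36 in replicate 2 (rank 11126). A KTS-minus peak covered 100% of it in replicate 1 and 85.9% in replicate 2, so most of it lay under KTS-minus peaks. It was still the highest KTS-minus peak within 50 kb in replicate 1, though not in replicate 2. Its nearest region held by all 4 cuts was 1329674 bp away.

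A second chromosome 8 member, from 74093018 to 74095252, reached 107 and 43 in the M15 lists (ranks 193 and 151) and 22 and 38 in the KTS-minus lists (ranks 13634 and 8338). The chromosome 15 member from 82987026 to 82988566 reached 90 and 49 in M15, then 23 and 38 in KTS-minus, and a region held by all 4 cuts lay 4751 bp from it. On chromosome 17, from 80111485 to 80117740, a member of 6256 bp reached 98 and 39 in M15, then 23 and 29 in KTS-minus. It was overlapped by 2 and 3 separate KTS-minus peaks. The remaining pair were on chromosome 11 from 102325628 to 102329175 (M15 112 and 33, KTS-minus 20 and 36) and on chromosome 15 from 79664419 to 79665991 (M15 80 and 45, KTS-minus 19 and 37). In KTS-minus replicate 2, 5 of these 6 members had a max signal of 36 to 38, just under the cut at 40, and the chromosome 17 member had 29.

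The 6 members farthest down the KTS-minus lists stood at ranks 2072 to 5555 of the M15 lists. Over all 1404 members, Spearman's rho of M15 replicate 1 ranks with those of KTS-minus replicates 1 and 2 was 0.042 and 0.20, and that of M15 replicate 2 was 0.058 and 0.12, given as a description. The lowest by mean percent rank was on chromosome 14 from 22805953 to 22808112. Its max signal in the replicates of each line was 31 and 14 (M15) and 9 and 14 (KTS-minus), at 85.7% and 86.8% of the KTS-minus lists. A member on chromosome 11 from 53282527 to 53284604 had M15 peaks of 20 and 14 and KTS-minus peaks of 10 and 12, at 76.0% and 93.2%. A member on chromosome 4 from 124083119 to 124084467 reached 27 and 15, then 10 and 12, at 74.6% and 94.3%. Members on chromosome 8 from 123765335 to 123767014, chromosome 16 from 37775770 to 37777783 and chromosome 9 from 62407180 to 62408679 completed the set. Their M15 max signals were 24 and 16, 20 and 14, and 32 and 19, and in KTS-minus 8 and 17, 8 and 17, and 11 and 10. None of the 6 was the highest KTS-minus peak within 50 kb in either library.

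The rule did not use M15 strength to separate members from regions held by all 4 cuts, and in both M15 libraries members were the weaker class. The median rank of members was 3222 in M15 replicate 1 and 3210 in replicate 2, against 1109 and 1156 for regions held by all 4 cuts and 2293.5 and 2362.5 for regions with 1 KTS-minus cut. Median max signal was 35 against 58 in replicate 1 and 16 against 23 in replicate 2. Quartiles overlapped, at 27 to 45 against 41 to 84.5 in replicate 1 and 14 to 19 against 17 to 32 in replicate 2. No test was made, because regions of a library are not replicates and 2 libraries set against 2 leave an exact permutation test no p below 1 in 3.

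When the 4006 regions were ordered by mean M15 rank and divided into 10 groups of 400 or 401, the share of members rose at each step. It was 3.25% in the strongest group (13 of 400), 33.2% in the fifth and 58.9% in the weakest (236 of 401), against 35.0% over all. The share held by all 4 cuts went from 84.0% in the strongest group to 12.2% in the weakest. Ordering by a single M15 list gave the same ends: 5.00% and 56.1% members by replicate 1, and 5.25% and 56.4% by replicate 2. Among the 334 regions within the first 500 ranks of both M15 lists, 10 (2.99%) were members and 282 (84.4%) were held by all 4 cuts. Members were thus found mostly, but not solely, among the weaker peaks that both M15 cuts shared.

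**Figure D3:**
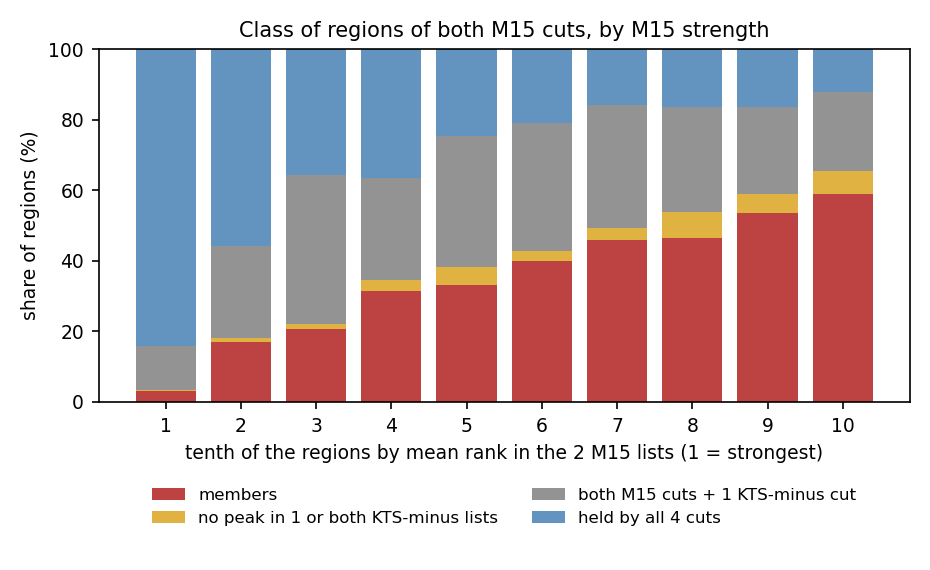
Stacked share of regions (y axis, %) in 10 groups ordered by mean rank in both M15 lists (x axis, 1 is strongest). Red is members, yellow regions lacking a peak in 1 or both KTS-minus lists, grey regions with 1 KTS-minus cut and blue regions held by all 4 cuts. The red share climbs from 3.25% to 58.9%.

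Regions of like M15 strength were then compared, from the fourth to the seventh of these groups (mean M15 rank 1493.5 to 3512), a range picked with the values known. It held 603 members and 392 regions held by all 4 cuts, with a median M15 max signal of 41 against 44.5 in replicate 1 and 18 in both classes in replicate 2. Members had narrower M15 peaks, with a median of 1569 bp in replicate 1, where regions held by all 4 cuts had 1759.5 bp, and 1531 bp in replicate 2, where they had 1749 bp. Total signal, the coverage summed over a peak, was also lower, at 17070 against 22554 in replicate 1 and 9190 against 11187.5 in replicate 2. The KTS-minus medians, which the rule used, were a max signal of 19 against 31 in replicate 1 and 30 against 54 in replicate 2. The match was incomplete: the median M15 rank was 2465 against 2027 in replicate 1 and 2358 against 2298.5 in replicate 2, and the part of this in the widths and totals was not tested.

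Member regions themselves had a median width of 1910 bp, with quartiles of 1523.5 and 2464.5 bp. The narrowest, on chromosome 9 from 113839578 to 113840233, measured 656 bp, and reached 45 and 13 in M15, then 23 and 34 in KTS-minus. The widest, on chromosome 17 from 28480860 to 28489519, measured 8660 bp, and reached 42 and 17, then 19 and 21. Regions held by all 4 cuts are built from KTS-minus peaks as well, so their median region width of 4658 bp is not on the same footing. By single peaks, the median width at members was 1566 and 1545.5 bp in M15 replicates 1 and 2, and 2209.5 and 1222.5 bp in KTS-minus replicates 1 and 2. The KTS-minus peaks at members were therefore wider than the median peak of their own lists, which was 1108 and 684 bp. Wide peaks overlap a region more readily, which favours this. KTS-minus peaks were wider still in regions with 1 KTS-minus cut (2963.5 and 1552.5 bp) and in regions held by all 4 cuts (4222 and 2047 bp).

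KTS-minus peaks covered most of the bases of a typical member. The median share of a member's bases under KTS-minus peaks was 85.5% in replicate 1 and 66.6% in replicate 2, with lowest values of 1.12% and 1.22%. This was not particular to members. Medians were 92.1% and 70.4% in regions with 1 KTS-minus cut, and 97.8% and 63.5% in regions held by all 4 cuts. Those regions are built from KTS-minus peaks as well, so they are not on the same footing. At least 50% of the region was covered in both libraries for 978 of 1404 members, a count not given for other regions. The median number of KTS-minus peaks per member was 1 in both libraries, with maxima of 4 and 7. The stretch of highest M15 signal lay under a KTS-minus peak in 94.2% to 95.6% of members over the 4 pairs of libraries, and in 99.2% to 99.7% of regions held by all 4 cuts. The M15 summit of most members thus lay under a KTS-minus peak. The rule required such a peak at each member, which favours this, and other positions in a member were not compared. Peaks of KTS-minus replicates 1 and 2 covered 434 and 199 Mb in all, and those of M15 replicates 1 and 2 covered 12.3 and 71.9 Mb.

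Summits agreed in position less well across the lines than between the M15 replicates. The midpoints of the highest-signal stretches of M15 replicates 1 and 2 were a median of 61.5 bp apart at members, and within 200 bp for 1141 of 1404 (81.3%). From M15 replicate 1 the KTS-minus replicate 2 summit was a median of 132.25 bp away (within 200 bp for 59.3%), and the KTS-minus replicate 1 summit 295.25 bp (39.2%). From M15 replicate 2 the medians were 164 bp and 328 bp. The summits of the KTS-minus replicates were farthest from each other, at a median of 402.75 bp (34.3% within 200 bp). At members, KTS-minus replicate 2 therefore peaked closer to both M15 libraries than to its own replicate. This order was not particular to members. In regions with 1 KTS-minus cut, KTS-minus replicate 2 was a median of 86 and 102.25 bp from M15 replicates 1 and 2. Its median distance from KTS-minus replicate 1 was 260.5 bp there.

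In regions held by all 4 cuts the M15 pair had a like median, at 63 bp, but was within 200 bp less often (75.2%, against 81.3% at members). All pairs with a KTS-minus library were closer there than at members. From M15 replicate 1, KTS-minus replicates 1 and 2 were 135 and 72.5 bp away. From M15 replicate 2 they were 141 and 91 bp away, and they were 139 bp from each other. Here too, KTS-minus replicate 2 peaked closer to both M15 libraries than to its own replicate. At like M15 strength the M15 pair was closer at members, at 53 bp, than in regions held by all 4 cuts, at 77.25 bp. The KTS-minus pair was 382 bp apart at members and 176.5 bp apart in regions held by all 4 cuts. M15 replicate 1 lay 287.5 and 121.5 bp from KTS-minus replicates 1 and 2 at members, against 175 and 85.25 bp. Members, which the rule chose for low KTS-minus peaks, also had longer stretches at the maximum, with medians of 18 and 14 bp in KTS-minus replicates 1 and 2 against 9 and 6 bp in regions held by all 4 cuts. The part of this in the distances was not tested. The summit of the KTS-minus peak fell inside the member in 1144 cases (81.5%) in replicate 1, whose peaks are wider, and in 1331 (94.8%) in replicate 2.

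**Figure D4:**
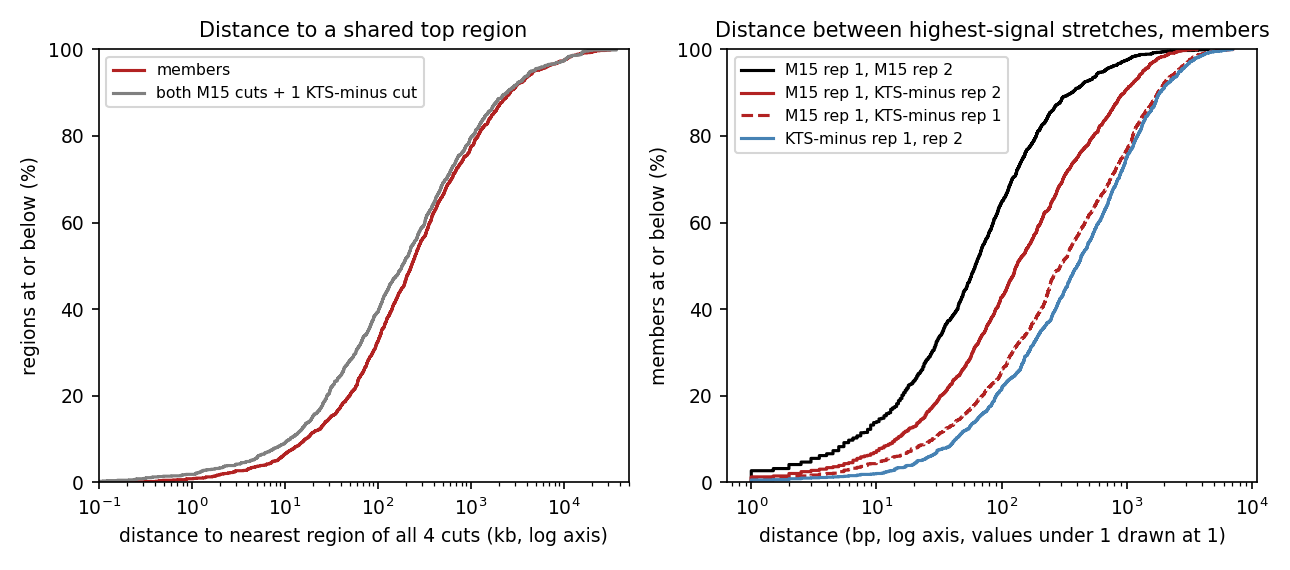
Left, share of regions (y axis, %) within a given distance in kb (log x axis) of the nearest region held by all 4 cuts, for members and for regions with 1 KTS-minus cut. Right, share of members whose highest-signal stretches in a pair of libraries lie within a given distance in bp (log x axis). The M15 pair, with a median of 61.5 bp, lies left of every other pair drawn, and the KTS-minus pair, with 402.75 bp, lies farthest right.

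In the edited line members were the highest peak nearby more often than all peaks and less often than regions held by all 4 cuts. The KTS-minus peak at a member was the highest within 50 kb on either side, ties included, for 259 members (18.4%) in replicate 1 and 254 (18.1%) in replicate 2. This compares with 8.92% and 10.9% of all peaks in those lists and with 72.5% and 72.4% of regions held by all 4 cuts. In both libraries it was the highest for 90 members (6.41%), and in neither for 981 (69.9%). Since max signal was what the rule used, a lower share than in regions held by all 4 cuts was built in. The comparison with all peaks favours the members, because a member takes the highest of all peaks that overlap it and wide peaks overlap more readily. These shares are a description. The same members were the highest peak within 50 kb in M15 replicate 2 for 62.3%, against 72.9% of regions held by all 4 cuts. The rule placed both classes in the cut of M15 replicate 2, so high shares there were built in. The share over all peaks of that list, and the shares in M15 replicate 1, are not given here. The list of M15 replicate 2 is also sparser, with a median of 8 peaks in the window against 23 and 16 in the KTS-minus lists. The M15 and KTS-minus shares are therefore not on one footing.

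The higher neighbour was not a strong peak in every case. For the 1145 members that were not the highest in KTS-minus replicate 1, the top peak in the window lay a median of 22979 bp away and was a median of 1.5 times as high. For the 1150 in replicate 2 it lay 23454.5 bp away and was 1.58 times as high. It was inside the cut in 635 cases (55.5%) and 634 cases (55.1%). These neighbours overlapped an M15 replicate 2 peak in 60.0% and 60.3% of cases and an M15 replicate 1 peak in 42.3% and 45.8%. Of all KTS-minus peaks in the cuts, 60.0% and 59.9% overlapped M15 replicate 2 and 32.4% and 38.3% M15 replicate 1, and over the complete KTS-minus lists the shares were 11.7% and 13.1%, then 1.98% and 2.85%.

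Members were present on all 20 chromosomes that held regions of both M15 cuts, and the share of members among regions of both M15 cuts differed between chromosomes. It was lowest on chromosomes 10 (19.3%, 28 of 145), 6 (19.5%, 57 of 293) and X (19.8%, 21 of 106), against 35.0% over all. Their 95% Wilson intervals reached up to 26.5%, 24.4% and 28.4%. It was highest on chromosomes 3 (53.2%, 41 of 77), 13 (46.6%, 61 of 131) and 7 (42.7%, 56 of 131), with intervals from 42.2%, 38.2% and 34.6% upward. By number, chromosome 11 held most, with 190 of 507 regions (37.5%). Intervals treat neighbouring regions as independent and cover counting error only.

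These shares followed how many strong KTS-minus peaks a chromosome had. Chromosomes 6, 10 and X held 1.67, 1.31 and 2.2 times as many peaks in the KTS-minus cuts as in the M15 cuts, and chromosomes 3, 13 and 7 held 0.82, 0.66 and 0.65 times as many. On chromosome X the M15 cuts themselves differed, with 204 peaks in replicate 1 and 512 in replicate 2. The KTS-minus cuts had 755 and 817 peaks there, so the ratio on X depends on the M15 library. Over the 20 chromosomes, this ratio and the share of members had a Spearman's rho of -0.88, a description of quantities that are built from the same cuts. DNA copy number was not measured, so more copies of a chromosome and stronger binding on it cannot be told apart.

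Cutting every list chromosome by chromosome, to the number of peaks that M15 replicate 1 lists there, removed part of this pattern. It gave 1351 members of 4075 regions (33.2%), and 1242 of the 1404 members (88.5%) were kept. Under this cut the share on chromosome X was 35.9% and on chromosome 6 28.9%, whereas chromosome 10 stayed lowest at 20.3% and chromosome 3 highest at 50.0%. On chromosome X this cut also shortened the list of M15 replicate 2, and regions of both M15 cuts went from 106 to 78. The change on X is therefore not from the KTS-minus lists alone. Chromosome 13 was at 39.8%, and chromosome 7 at 37.1%. A cut by chromosome leaves differences inside a chromosome as they are. On chromosome 10, regions held by all 4 cuts began at 41653341. Every region of both M15 cuts from 124532886 to 126403435 was of this class, with widths up to 258829 bp. The share of members was therefore not even along chromosome 10.

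**Figure D5:**
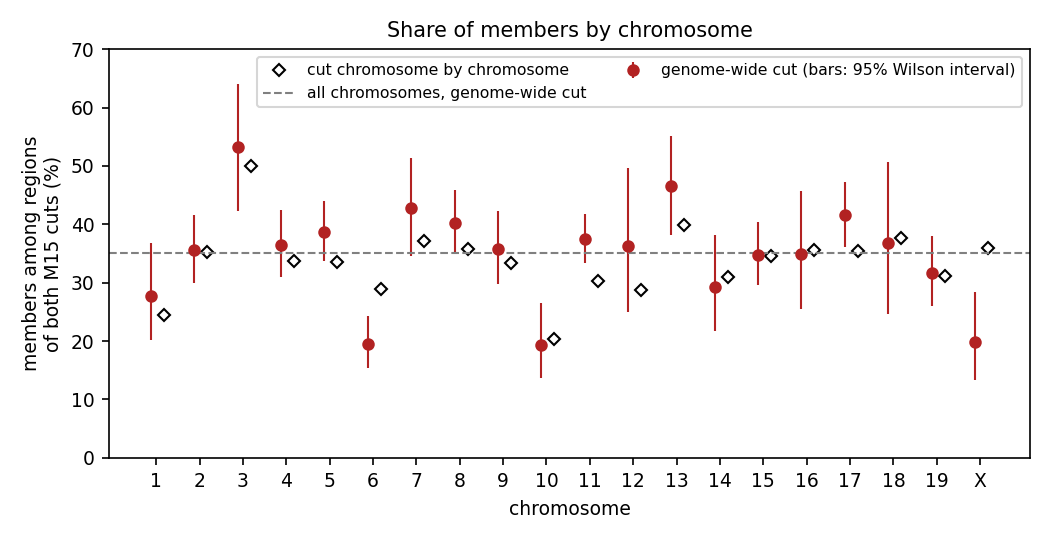
Share of members among regions of both M15 cuts (y axis, %) on each chromosome (x axis). Red points are the cut over the whole genome with 95% Wilson intervals, open diamonds the cut made chromosome by chromosome, and the dashed line is 35.0%. Chromosome X moves from 19.8% to 35.9%, and chromosome 10 stays near 20% (19.3% and 20.3%).

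Members lay at a median of 230926 bp from the nearest region held by all 4 cuts, with quartiles of 67609.75 and 841383.75 bp. For 12 members (0.85%) the distance was at most 1 kb, for 91 (6.48%) at most 10 kb and for 456 (32.5%) at most 100 kb. The median was 106191 bp without KTS-minus replicate 1 and 151453.5 bp without KTS-minus replicate 2, and 1077745.5 bp when peaks were ranked by mean coverage. Regions with 1 KTS-minus cut were somewhat closer, with a median of 183347 bp and 464 of 1180 (39.3%) within 100 kb. All M15 replicate 1 peaks outside regions held by all 4 cuts had a median of 241023.5 bp under the same cuts. All KTS-minus peaks were much farther, at 890243.5 and 955590.5 bp in replicates 1 and 2. Distance and KTS-minus rank were nearly unrelated across members, with a Spearman's rho of 0.081 and 0.00080, given as a description over 1404 regions.

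The nearest member was on chromosome 11 from 116677772 to 116679769, at 150 bp from a region held by all 4 cuts. Its max signals were 69 and 19 in M15, then 17 and 15 in KTS-minus, at 16.4% and 80.8% of the KTS-minus lists. A member on chromosome 4 from 132575147 to 132577631 lay 181 bp from such a region, and reached 33 and 13, then 21 and 24. On chromosome 2, the member from 30566575 to 30569271 lay 316 bp away (60 and 15, then 20 and 34). A chromosome 8 member from 124806544 to 124808465, which reached 18 and 14, then 24 and 26, lay 410 bp away. The last of these had rank 5813 in M15 replicate 1 (90.3% of the list) and rank 7886 in KTS-minus replicate 1 (2.54%). These lists differ in length, so the shares do not measure a change.

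The members farthest from any region held by all 4 cuts were on chromosomes 3 and 10. On chromosome 3, the member from 8716623 to 8718199 was 32690708 bp away, and reached 44 and 19 in the M15 lists, then 24 and 28. Members of that chromosome from 9751281 to 9752685 (53 and 21, then 22 and 26) and from 9832969 to 9835238 (29 and 15, then 17 and 35) were 31656222 and 31573669 bp away. Chromosome 3 held only 10 regions of all 4 cuts, against 41 members. The chromosome 10 member from 13684115 to 13685922 was 27967418 bp away and reached 30 and 19, then 21 and 39. It was the highest peak within 50 kb in both KTS-minus libraries.

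Members also lay near each other in places. The median distance to the nearest other member was 159945 bp, against 113559 bp between neighbouring regions held by all 4 cuts. Another member lay within 50 kb of 376 members (26.8%). Of the 1275 regions held by all 4 cuts, 463 (36.3%) had another such region within 50 kb. The 376 members formed 165 runs, 36 of them with 3 or more members. The longest run had 6 members on chromosome 11 from 120011743 to 120167480, a span of 155738 bp. A run of 5 spanned 67762 bp on chromosome 9 from 63553410 to 63621171. Of the runs of 4, the most compact spanned 23995 bp on chromosome 19 from 38089608 to 38113602, and it contained 1 of the 4 members closest to both KTS-minus cuts (chromosome 19 from 38112279 to 38113602, M15 35 and 16, KTS-minus 24 and 39).

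The number of members depended on how peaks were ranked, cut and overlapped. When the KTS-minus lists were cut at the 10.6% that the cut keeps in M15 replicate 2, they held 32874 and 25837 peaks and ended at max signals of 19 and 32. Then 487 regions of 3983 (12.2%) were members, all 487 of them among the 1404, and 2307 regions were held by all 4 cuts. Ranking by total signal gave 1030 members of 3575 regions (28.8%), of which 603 (58.5%) overlapped the 1404. Ranking by mean coverage raised the number to 2376 of 3703 (64.2%), and overlapping only the stretches of highest signal left 36 of 1125 (3.20%). In the opposite direction, 291 of 1879 regions of both KTS-minus cuts (15.5%) were in neither M15 cut. That count has no counterpart to the full-list condition, because the complete list of M15 replicate 1 is its cut.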

How the data were processed

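WT1 CUT&RUN peak lists of 4 libraries were used, 2 of M15 and 2 of the KTS-minus line. The submitters' processing notes name the build mm9 and SEACR 1.3, a caller of peaks from coverage, along with Bowtie2 2.2.6, SAMtools 1.3, bedtools 2.23.0, Picard 2.5.0 and FastQC 0.11.8. The deposited signal values, total and max coverage of each peak, are whole numbers in 6-column lists made per library. For scaling between libraries, control, threshold and use of the yeast spike-in, the settings were not given in the sources used here. Read depth is unknown.

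Ties in max signal were ordered by total signal, chromosome and start. Coordinates are mm9, counted from 1. The last chromosome 1 peak ends at 197194788, past the last gene end of 195291439 in the GRCm38 table at hand, so genes, motifs and sequence were not analysed. No test was made between lines. Named regions are the 6 members strongest in M15, the 6 lowest in KTS-minus, the 4 closest to the cuts from either side, the 4 nearest to and farthest from regions held by all 4 cuts, and the 3 widest and narrowest, of which the text gives those that show the range. Members, lists and comparisons were chosen with earlier results of these data known. Runs of members and the higher-neighbour comparison were added after seeing the data. Python 3.11.15, numpy 2.4.6, pandas 2.3.3, scipy 1.17.1 and matplotlib 3.10.9 were used, and the code was tested on simulated data.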

Additional observations from a re-analysis of the deposited data

How the results depend on the processing

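No paired analysis was possible because the results come from no test. The 6 results were recomputed under each alternative. Limits were a factor of 1.5 for the number of members, the 95% interval for their share of regions, width and distance, and 1 SD between KTS-minus replicates for percent rank and for the share highest within 50 kb (SD 0.25 percentage points, so that limit is narrow). The values moved in 55 cases and stayed in 25.

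The number of members was 2376 by mean coverage, 697 with cuts of 50% of the length, 487 at an equal share and 36 by stretches of highest signal. In the same order their share was 64.2%, 32.8%, 12.2% and 3.20%. It was 28.8% by total signal, 28.5% with cuts of 2 times the length, 33.2% by chromosome, 24.4% when 50% of the region had to be covered, and 37.5% without chromosomes 6, 10 and X, an alternative added after seeing the data. Median percent rank was 7.09% by total signal, 7.37% with the shorter cut, 20.3% with the longer cut and 29.4% at an equal share. Median width was 2057.5, 2040, 1861 and 1811 bp under these settings, 124.5 bp by stretches and 1831 bp with 50% covered. Median distance was 1077745.5 bp by mean coverage, 352436 bp with the shorter cut, 170228 bp with cuts of 2 times the length, 100116 bp at an equal share and 8629283 bp by stretches. The share highest within 50 kb was 23.6% by total signal, 34.4% by mean coverage, 25.7% with the shorter cut, 13.3% with cuts of 2 times the length, 5.75% at an equal share, 17.1% by chromosome, 25.0% by stretches and 19.3% with 50% covered. It was 35.8% in a 20 kb window and 9.51% in a 100 kb window.

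Leaving out each library in turn gave 1977 to 2551 members, shares of 38.0% to 54.1%, median percent ranks of 9.55% to 16.9%, widths of 1428.5 to 1967 bp, distances of 106191 to 236603 bp and shares highest within 50 kb of 15.2% to 18.9%. The rule then asks less, since fewer lists must meet it. What the lists' unknown depth contributes to ranks was not tested.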
